A study of Ovis aries with 3 samples.

Results

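The notochord and midline organizer genes are 7 genes chosen by name, *T*, *NOTO*, *SHH*, *FOXA2*, *CHRD*, *NOG* and *SPON1*, and all 7 were found among the 26478 genes of the count tables. They were followed in whole sheep embryos profiled cell by cell on the 10x Genomics droplet platform, where each captured RNA molecule is counted once by its unique molecular identifier (UMI). There were 3 libraries. E19 HSTS was an embryo of the Hulunbuir short-tailed sheep at embryonic day 19, and E19 HS was an embryo of the Hu sheep at the same day. E16 HS was Hu sheep at embryonic day 16. The labels name a single embryo for it, whereas the study lists 3 embryos for that group, and whether they were pooled could not be settled. The study genotyped its breeding animals, and its HSTS animals carried on both copies a *T* allele with a base substitution that it describes as loss of function, whereas its HS animals carried the wild type. The ewes of both breeds had been synchronized with progesterone and a gonadotropin and inseminated, and dissociated cells of every library went through a step that lyses red blood cells. The labels give no other treatment, the embryos themselves carry no genotype label, and breed and *T* genotype cannot be told apart. Each group was 1 library, so no test between groups was possible, and every interval given is an exact 95% interval for counting error only. Values given in threes without names follow the order E19 HSTS, E19 HS, E16 HS.

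In vertebrate embryos the notochord is a rod of mesoderm under the neural tube that patterns its surroundings. It forms from the node and is extended at the tail end by progenitors of the tail bud. *SHH* is the secreted hedgehog ligand made by the notochord, by the floor plate of the neural tube and by endoderm, and *T*, *NOTO* and *FOXA2* are transcription factors of node, notochord or floor plate. *CHRD* and *NOG* encode secreted antagonists of bone morphogenetic proteins (BMPs), and *SPON1* encodes F-spondin, a matrix protein first known from the floor plate. Since several of these tissues share a gene, 3 partner genes were read in the same cells: *CDX2*, a posterior transcription factor of tail bud and hindgut, *SOX2*, a neural progenitor factor, and *EPCAM*, an epithelial adhesion molecule of gut and surface epithelium.

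Of the barcodes deposited as cells, 9618, 10629 and 11329 were kept. Each had between 200 and 6000 genes detected, a total between 1000 and 30000 UMIs, and no more than 10% of UMIs from mitochondrial genes. Their median depth was 8675, 6900 and 9046 UMIs. Libraries shared 31 to 37 cell barcodes in pairs. Blood cells, which should lack the 7 genes and so show the level of free RNA, were taken from 6 clusters, 4 named blood progenitor-like and 2 that no marker list named but whose leading genes included *ANK1*, which encodes a red cell membrane protein. In E16 HS the 2 unnamed clusters held 1634 and 201 of the 2002 blood cells. Blood cells made up 27.4%, 13.4% and 17.7% of the kept cells, with a median of 17492, 17569 and 13946.5 UMIs against 7250, 6348 and 8128 in the others. The partners were also found in few of them: *CDX2* in 0.304%, 0.281% and 1.30% of blood cells, *SOX2* in 3.68%, 3.38% and 2.45%, and *EPCAM* in 1.44%, 1.62% and 3.50%.

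The genes other than *SPON1* were found in few cells, and *T* and *NOTO* had the ratios furthest from 1 between libraries. *T* had 6, 50 and 224 UMIs. As UMIs per 1000000 UMIs (CPM), this was 0.0603 (interval 0.0221 to 0.131), 0.563 (0.418 to 0.743) and 1.98 (1.73 to 2.26), so that the 3 intervals did not overlap. The cells with at least 1 UMI of *T* numbered 5, 29 and 165, or 0.0520%, 0.273% and 1.46% of the kept cells. Among blood cells *T* was found in 0, 0 and 4 cells. After each cell was thinned to 3000 UMIs, the shares of cells with *T* were 0.0235%, 0.194% and 0.639%, in the same order. In E19 HSTS 1 of the 5 cells held 2 UMIs and the others 1, whereas 13 of the 29 cells of E19 HS held 2 or more.

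*NOTO*, the homeobox factor of the node and early notochord, was detected in E16 HS alone. It had 33 UMIs there in 19 cells, or 0.291 CPM (0.201 to 0.409). Neither E19 library had a UMI of it, and a count of 0 allows up to 0.0301 CPM in E19 HSTS and 0.0338 CPM in E19 HS by a limit of 3 counts. No blood cell held it in any library.

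*SHH* had 80, 71 and 38 UMIs. Its levels of 0.803 CPM (0.637 to 1.000), 0.800 CPM (0.625 to 1.01) and 0.336 CPM (0.238 to 0.461) show near-equal values at day 19 and a lower one at day 16. It was found in 64, 58 and 31 cells, of which 1, 0 and 0 were blood cells. *FOXA2*, which opens chromatin in midline and endoderm cells, had 51, 61 and 46 UMIs. Its levels of 0.512 CPM (0.381 to 0.673), 0.687 CPM (0.526 to 0.883) and 0.406 CPM (0.297 to 0.542) had intervals that all overlapped. It was found in 46, 59 and 42 cells, of which 0, 0 and 1 were blood cells.

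**Figure D1:**
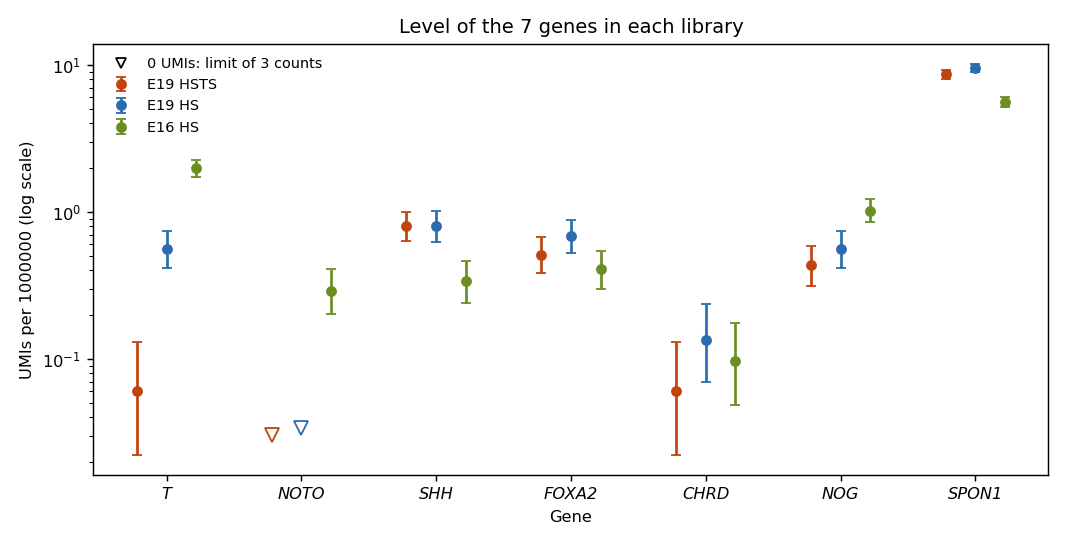
Level of each of the 7 genes in UMIs per 1000000 (log axis) in the 3 libraries, with exact Poisson intervals for counting error; open triangles mark the limit of 3 counts where no UMI was found. *T* stands at 1.98 in E16 HS, 0.563 in E19 HS and 0.0603 in E19 HSTS, and *SPON1* has the most UMIs of the 7 genes in each library.

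The BMP antagonists had few UMIs. *CHRD* had 6, 12 and 11 UMIs, and in E19 HSTS 3 of its 6 cells were blood cells. Its share of blood cells there, 0.114%, was above its 0.0430% in the other cells, so in E19 HSTS it could not be read above background. In E19 HS the share was 0.0704% of blood cells, with an upper end of 0.391%, against 0.119% of the others. It was not clearly above background there either. In E16 HS no blood cell held it, which allows up to 0.184%, against 0.107% of the others. *NOG* had 43, 50 and 116 UMIs in 42, 50 and 112 cells, at 0.432 CPM (0.313 to 0.582), 0.563 CPM (0.418 to 0.743) and 1.02 CPM (0.847 to 1.23). The E16 HS value lay above both others, and the share of cells after thinning was 0.141%, 0.140% and 0.370%. *SPON1* had 859, 845 and 631 UMIs, at 8.63 CPM (8.06 to 9.22), 9.52 CPM (8.89 to 10.2) and 5.57 CPM (5.15 to 6.03). It was found in 5.33%, 5.55% and 4.37% of the kept cells, against 0.797%, 0.633% and 0.649% of blood cells, and after thinning in 2.66%, 3.03% and 1.81%.

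Between the breeds at day 19, *T* was the 1 gene at least 2-fold apart among the members with enough UMIs. Its level in E19 HSTS was 0.107 of that in E19 HS (0.0375 to 0.25), or 9.35-fold lower. Of the 5 members with at least 20 UMIs in both libraries together, 1 was at least 2-fold lower in E19 HSTS and 0 were higher. Over the 13984 genes with as many UMIs, 3.30% were at least 2-fold lower and 2.40% higher. The ratios of the others were 1.00 for *SHH* (0.720 to 1.40), 0.745 for *FOXA2* (0.503 to 1.10), 0.766 for *NOG* (0.498 to 1.18) and 0.906 for *SPON1* (0.823 to 0.997). *CHRD*, with 6 and 12 UMIs and a ratio of 0.446 (0.137 to 1.28), had too few to be counted, and *NOTO* had no UMI in either library. Blood cells were more frequent in E19 HSTS; without them the ratio of *T* was 0.140 and that of *SPON1* turned to 1.17 (1.06 to 1.29). When the cells ranking in the top 8% by doublet score were left out, the ratio of *T* was 0.0603.

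The gene lists around the 7 members were followed in the same comparison. Of 8 tail bud genes with enough UMIs, 2 were at least 2-fold lower in E19 HSTS and 0 higher. These were *FGF17*, a fibroblast growth factor, with 2 and 38 UMIs in HSTS and HS, and *CYP26A1*, which breaks down retinoic acid, with 38 and 71 UMIs. *MSGN1*, a factor of presomitic mesoderm, had 1 and 12 UMIs, too few to be counted. The median log2 ratio of the tail bud list was -0.784, against -0.0541 over all genes. None of the 11 hedgehog receptor and transduction genes, the 9 hedgehog targets, the 3 ligand and processing genes, the 11 BMP antagonists, the 5 BMP ligands or the 12 guidance genes was 2-fold apart. *PTCH1*, the hedgehog receptor that is itself a target, had a ratio of 0.95 (0.870 to 1.04), and *GLI1*, a transcriptional readout of the pathway, 1.32 (1.02 to 1.72). Of 10 floor plate genes 1 was lower (*LMX1A*, 0.379), and of 15 notochord genes 1 was higher (*FOXJ1*, 2.67) and 1 lower (*COL9A3*, 0.446). Of 3 node and T-box genes, *FOXJ1* was higher and *T* lower. Of 11 endoderm genes 0 were 2-fold apart, and of 11 neural progenitor genes 1 was lower (*DBX1*, 0.297).

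Between the stages within HS, *T* and *NOTO* were higher at day 16 and *SHH* was lower. *T* was 3.51-fold higher in E16 HS than in E19 HS (2.57 to 4.87). *NOTO* was 8.62-fold higher when E19 HS was set to the limit of 3 counts, and the exact interval of its ratio had a lower end of 6.63. *SHH* stood at 0.419 of its E19 HS level (0.275 to 0.631), or 2.38-fold lower. Thus 2 of the 7 members were at least 2-fold higher in E16 HS and 1 was lower, where 8.06% and 7.89% of 14127 genes were. *NOG* was 1.82-fold higher (1.29 to 2.59), and *FOXA2*, *SPON1* and *CHRD* had ratios of 0.591 (0.394 to 0.881), 0.585 (0.527 to 0.650) and 0.718 (0.287 to 1.78). This comparison uses the same E19 HS library as the one between breeds.

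The same lists were then compared between the stages. Of 12 tail bud genes 10 were at least 2-fold higher in E16 HS and 0 lower, among them *FGF17* (ratio 8.0), *CDX4* (7.67) and *MSGN1* (5.03), and the list's median log2 ratio was 1.68, against 0.210 over all genes. Of 10 floor plate genes 6 were lower and 0 higher, among them *NKX6-1* (0.183) and *RFX4* (0.210). Of 9 hedgehog targets 1 was higher (*FOXF1*, a mesoderm target) and 3 were lower (*NKX6-1*, *OLIG2* and *PAX1*), while none of the 11 receptor and transduction genes was 2-fold apart. Of 3 ligand and processing genes 2 were lower, *SHH* and *SCUBE2*, which helps release the ligand. Of 12 BMP antagonists 3 were higher (*GREM1*, *BAMBI* and *CER1*) and 1 lower (*BMPER*), and of 6 BMP ligands 3 were higher (*BMP5*, *BMP7* and *GDF6*). Of 14 notochord genes 1 was higher and 2 lower, of 11 endoderm genes 4 and 2, and of 11 neural progenitor genes 0 and 7. All 4 node and T-box genes with enough UMIs were higher (*T*, *TBX6*, *CER1* and *NOTO*), and of 12 guidance genes 1 was higher and 3 lower. For *BMPER*, *GDF6* and *GREM1* the counts were at most 43 UMIs in a library.

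Few cells held more than 1 of *T*, *NOTO*, *SHH*, *FOXA2* and *CHRD*. Of 109, 142 and 233 cells with any of them, 11, 13 and 22 held 2 or more, and 1, 3 and 9 held 3 or more. For most pairs the count of shared cells is set beside the count that independent genes would give at each cell's depth.

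**Figure D2:**
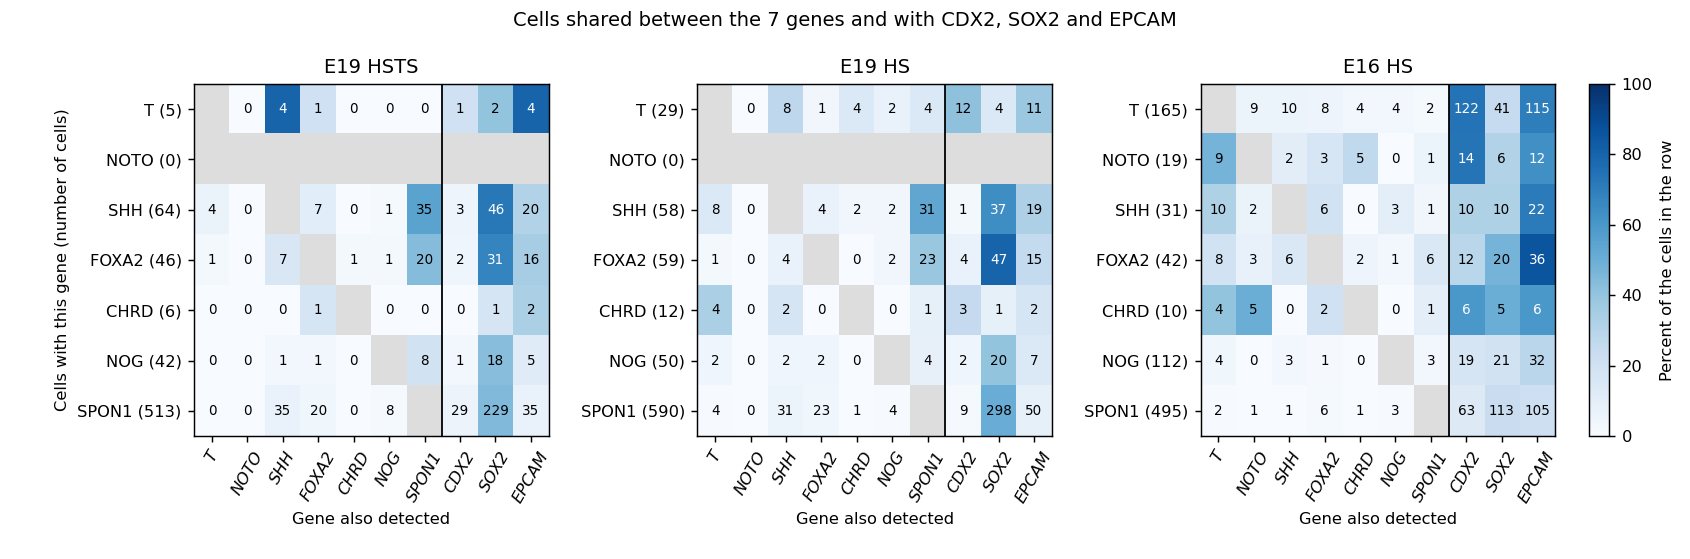
Share of the cells with each gene (rows, number of cells in brackets) that also held a UMI of another gene (columns), as percent by colour and number of cells in print, for the 3 libraries; grey marks a gene with itself or without cells. *T* lies with *CDX2* in 122 of 165 cells of E16 HS and with *SHH* in 4 of 5 cells of E19 HSTS, and *SHH* lies with *SPON1* and *SOX2* at day 19.

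*T* was found with *CDX2* and with *SHH* in different shares of its cells in the 3 libraries. In E16 HS 122 of 165 cells with *T* also held *CDX2* (73.9%, 66.5 to 80.5), where 23.6 were expected from independence. In E19 HS it was 12 of 29 (41.4%, 23.5 to 61.1; expected 0.635) and in E19 HSTS 1 of 5 (20%, 0.505 to 71.6; expected 0.128). With *SHH* the order was turned: 10 of 165 in E16 HS (expected 0.613), 8 of 29 in E19 HS (expected 0.229) and 4 of 5 in E19 HSTS (expected 0.0466). At an equal depth of 3000 UMIs per cell the shares with *CDX2* were 32.8% (21.6 to 45.7) in E16 HS and 27.8% (9.69 to 53.5) in E19 HS, whose intervals overlapped, and the 2 cells with *T* left in E19 HSTS held neither *CDX2* nor *SHH*. Seen from *CDX2*, *T* was found in 10.1% of 1213 cells with *CDX2* in E16 HS, in 7.45% of 161 in E19 HS and in 0.568% of 176 in E19 HSTS. The level of *CDX2* itself was 2.39 CPM in E19 HSTS and 2.63 CPM in E19 HS, a ratio of 0.910 (0.757 to 1.10), and 20.7 CPM in E16 HS.

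The cells with *T* were therefore split by *SHH* and *CDX2*; these classes were drawn after the shared cells had been seen. Cells with *T* and *CDX2* but no *SHH* numbered 117 of 11329 in E16 HS (1.03%, 0.855 to 1.24) and 12 of 10629 in E19 HS (0.113%, 0.0583 to 0.197). There were 0 of 9618 in E19 HSTS, which allows a share of up to 0.0312%. Cells with *T* and *SHH*, with or without *CDX2*, numbered 4 (0.0416%, 0.0113 to 0.106), 8 (0.0753%, 0.0325 to 0.148) and 10 (0.0883%, 0.0423 to 0.162). The intervals of the *T* and *SHH* class overlapped in all 3 libraries, whereas those of the *T* and *CDX2* class in E19 HS and E16 HS did not, and the limit in E19 HSTS lay below both. The classes were not drawn alike: the 1 cell of E19 HSTS with *T*, *SHH* and *CDX2* counted for *SHH* alone. With that cell, *T* and *CDX2* were shared by 1 cell of E19 HSTS (0.0104%, 0.000263 to 0.0579), just below the lower end of 0.0583% for E19 HS. Cells with *T* and *SHH* but no *CDX2* numbered 3, 8 and 5, and their intervals also overlapped. Among the cells with *T* and *SHH* 2 of 4, 3 of 8 and 5 of 10 ranked in the top 8% of their library by doublet score, and the part of doublets in them was not tested.

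**Figure D3:**
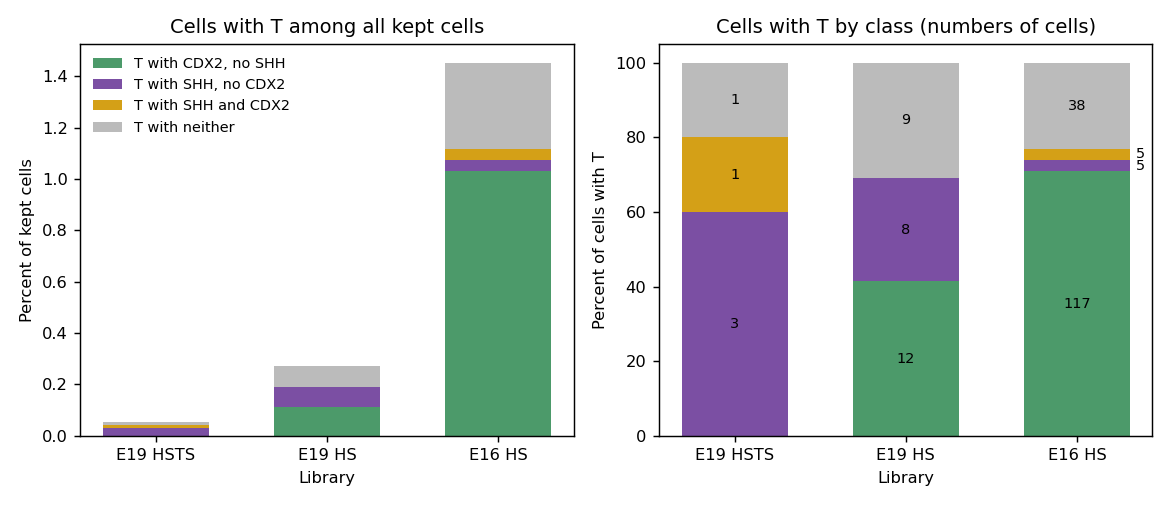
Cells with *T* as percent of all kept cells (left) and as percent of the cells with *T* (right, numbers of cells printed), by whether they also held *CDX2* or *SHH*. The class with *CDX2* and no *SHH* holds 117 of 165 cells in E16 HS, 12 of 29 in E19 HS and none of 5 in E19 HSTS.

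The classes differed in genes that had not defined them. Cells with *T* and *CDX2* but no *SHH* held the tail bud list, without its members and partners, at 723 CPM (680 to 768) in E16 HS and 525 CPM (396 to 681) in E19 HS, against 45.9 and 18.8 CPM in all other cells. *FGF8*, the growth factor of the tail bud, was found in 90 of 117 and 8 of 12 of these cells. Cells with *T* and *SHH* but no *CDX2* held that list at 0 UMIs in E16 HS and E19 HS and at 1 UMI in E19 HSTS. They held the notochord list of cartilage-like matrix and *SOX* genes at 3277.6 CPM (2645.5 to 4015.3) in E16 HS, 2532.1 CPM (2141.8 to 2972.8) in E19 HS and 1680.6 CPM (1239.1 to 2228.2) in E19 HSTS, against 150 to 180 CPM in all other cells. Over the 3 libraries together 15 of 16 cells held *SOX9*, 15 held *COL2A1*, the type II collagen of notochord and cartilage, and 12 held *SOX6*, against 18.9%, 33.7% and 3.59% of other cells. In the cells with *T* and *CDX2* but no *SHH*, *SOX9* was found in 36 of 117 in E16 HS and 5 of 12 in E19 HS. *COL2A1* was found in 79 and 8 of those cells, so neither gene was particular to the cells with *T* and *SHH* but no *CDX2*. The endoderm list stood in the cells with *T* and *SHH* but no *CDX2* at 1610.5, 1155.6 and 3700.6 CPM against 323, 377 and 1675.2 CPM. *KRT19*, an epithelial keratin, was found in 16 of these 16 cells. *NTN1*, the netrin of the floor plate, was found in 0 of 16 cells, which allows a share of up to 18.8%, while the floor plate list stood in them at 147 CPM (85.5 to 235) against 29.9 CPM, with *SLIT2* in 8 of 16. *SNORC*, a proteoglycan of cartilage, led this class with 28 UMIs in 9 of the 16 cells, at 242 CPM against 0.192 CPM in other cells, followed by *SAMD3* with 20 UMIs in 11 cells. The cells with all of *T*, *SHH* and *CDX2* numbered 1, 0 and 5. In the 5 cells of E16 HS the notochord list stood at 780 CPM (559 to 1057.6), the tail bud list at 304 CPM (174 to 494) and the floor plate list at 627 CPM (432 to 881), and the 1 cell of E19 HSTS held no UMI of the tail bud list.

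Taken over all cells with *T*, the day 19 libraries differed in the same genes. In E19 HSTS 5 of 5 cells with *T* held *SOX9* and 5 of 5 held *COL2A1*, and in E19 HS 15 and 17 of 29 did. The tail bud list had 1 UMI in all 5 cells of E19 HSTS, or 16.5 CPM (0.419 to 92.1), and 75 UMIs in the 29 cells of E19 HS, or 346 CPM (272 to 434). The notochord list stood at 2264.9 CPM (1901.5 to 2677.5) in E19 HSTS and 1042.9 CPM (911 to 1188.1) in E19 HS. The floor plate list was at 149 and 148 CPM in them, against 27.5 and 32.2 CPM in other cells, with *NTN1* in 1 of 5 and 3 of 29 cells. These values rest on 5 cells of 1 embryo in E19 HSTS. Of the 137 UMIs of the notochord list in these 5 cells, 78 came from 1 cell of 25460 UMIs that held *T*, *SHH* and *CDX2*. The list stood at 1680.6 CPM in the 3 cells with *SHH* but no *CDX2* and at 1701.2 CPM (849 to 3043.9) in the 1 cell with neither. By doublet score 3 of the 5 cells, among them the cell of 25460 UMIs, ranked at the top of their library, against 5 of 29 in E19 HS.

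*NOTO* in E16 HS was found in cells that held genes of both the tail bud and the notochord lists. Of its 19 cells 9 held *T* (expected 0.376), 14 held *CDX2* (expected 2.73), 12 held *EPCAM* (expected 5.23) and 5 held *CHRD* (expected 0.0228), while 2 held *SHH*. The 5 cells with *NOTO* and *CHRD* were 5 of the 10 cells with *CHRD* and 5 of the 19 with *NOTO*. *FGF8* was found in 9 of the 19 cells and *HES7*, an oscillating segmentation gene, in 3, but *CDX4*, *FGF17* and *MSGN1* in 0 of 19, which allows a share of up to 15.8%. *SOX9* was found in 15 and *COL2A1* in 17 of them. The tail bud list was at 336 CPM (269 to 414) and the notochord list at 599 CPM (508 to 700), against 53.9 and 180 CPM in the other cells. The floor plate list was at 282 CPM (221 to 354) against 29.5 CPM, with *SLIT2*, a guidance ligand of the midline, in 12 cells and *NTN1* in 5. The genes that led these cells beside *T* were *SLC2A5*, a sugar transporter, in 16 cells, *ERICH2* in 15 cells and *BMPR1B*, a BMP receptor, in 10.

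Some cells with *CHRD* in HS also held *T*. Of its cells in E16 HS 4 of 10 held *T* (expected 0.198) and none held *SHH*, and in E19 HS 4 of 12 held *T* (expected 0.0475) and 2 held *SHH*. In E19 HSTS none of the 6 cells with *CHRD* held *T* or *SHH*, which allows a share of up to 45.9% by the exact interval.

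*SHH* was found with neural, epithelial and notochord genes. With *SOX2* it shared 46 of its 64 cells (71.9%, 59.2 to 82.4; expected 19.2), 37 of 58 (63.8%, 50.1 to 76.0; expected 22.1) and 10 of 31 (32.3%, 16.7 to 51.4; expected 5.91). With *SPON1* it shared 35 of 64 (expected 4.74), 31 of 58 (expected 4.61) and 1 of 31 (expected 1.83). With *EPCAM* it shared 20 of 64 (31.2%, 20.2 to 44.1; expected 9.85), 19 of 58 (32.8%, 21.0 to 46.3; expected 10.9) and 22 of 31 (71.0%, 52.0 to 85.8; expected 8.53). The day 19 libraries had overlapping intervals in these shares, and the E16 HS share with *EPCAM* lay above both. *EPCAM* itself was found in 11.2%, 13.3% and 20.9% of the kept cells, so it was also more frequent in E16 HS as a whole. After thinning to 3000 UMIs the shares with *EPCAM* were 21.2% (8.98 to 38.9), 19.4% (7.45 to 37.5) and 27.3% (6.02 to 61.0), whose intervals overlapped.

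The cells with *SHH* and *SOX2* but no *EPCAM* numbered 37, 30 and 2. They held the floor plate list, which leaves out the members, at 644 CPM (554 to 745) and 446 CPM (363 to 542) at day 19, against 25.8 and 31.5 CPM in other cells. Over the 3 libraries *NTN1* was found in 45 of these 69 cells, against 7.27% of other cells. *RFX4*, a factor of the ventral neural tube, was found in 21, and *CORIN*, a floor plate protease, in 14, against 1.09% and 1.14% of other cells. *CLDN4*, *CLDN7* and *KRT7*, epithelial genes, were found in 0 of 69, which allows a share of up to 4.35%. *PAX6*, a neural progenitor factor of more dorsal cells, was found in 2 of 69, and the neural progenitor list was at 77.4 CPM (48.5 to 117) and 48.6 CPM (24.3 to 87.0) at day 19, against 64.7 and 73.6 CPM. The endoderm list stood at 289 CPM (230 to 358) in E19 HSTS and 39.8 CPM (18.2 to 75.5) in E19 HS, against 323 and 378 CPM. The notochord list stood at 415 CPM (344 to 497) and 274 CPM (210 to 351), against 150 and 161 CPM. The leading genes beside *SHH* were *ENKUR*, a ciliary protein, in 28 of 69 cells, *FAM166C* in 15, *SPON1* in 54 and *HCRT*, known as a hypothalamic neuropeptide gene, in 24.

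The cells with *SHH* and *EPCAM* but no *SOX2* numbered 11, 12 and 14. They held the endoderm list at 1221.7, 1369.6 and 2601.9 CPM, against 322, 376 and 1674.5 CPM in other cells, and the floor plate list at 28.4, 44.9 and 112 CPM, against 27.5, 32.5 and 30.0 CPM. Over the 3 libraries *CLDN7* was found in 23 of these 37 cells and *KRT7* in 17, but *SOX9* in 26 and *COL2A1* in 27 as well, and the notochord list was at 991 CPM (894 to 1096.5). Of the cells with *T* and *SHH*, 4 of 4, 3 of 8 and 7 of 10 held *EPCAM*, and only 2, 1 and 2 held *SOX2*. Some cells with *T* and *SHH* were therefore among these 37 cells. *EPCAM* was also found in cells without *SHH*. Of the cells with *T* and *CDX2* but no *SHH*, 87 of 117 in E16 HS and 4 of 12 in E19 HS held *EPCAM*, so it did not set endoderm apart from tail bud. The 7, 9 and 7 cells with *SHH* and neither *SOX2* nor *EPCAM* held the notochord list at 1241.0, 2047.0 and 1601.1 CPM, and *SNORC* led them with 38 UMIs in 8 of 23 cells.

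**Figure D4:**
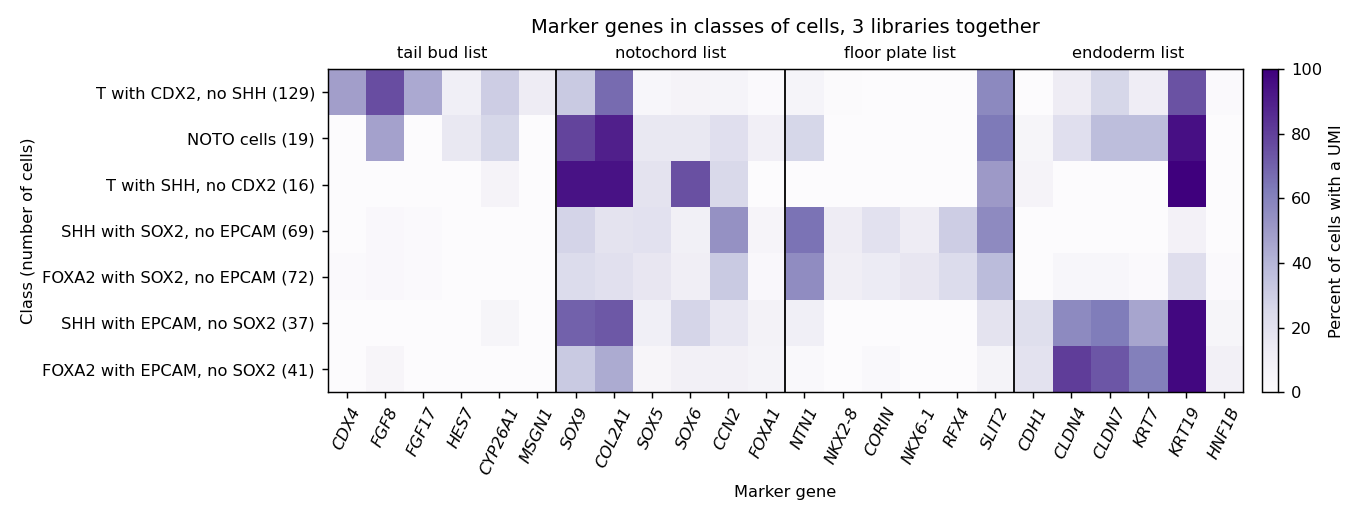
Percent of cells with a UMI of each marker gene (columns, from 4 lists that leave out the members and partners) in classes of cells with *T*, *NOTO*, *SHH* or *FOXA2* (rows, number of cells in brackets), 3 libraries together. *FGF8* is frequent in the *T* and *CDX2* class, *SOX9*, *COL2A1* and *SOX6* in the *T* and *SHH* class, *NTN1* in the *SOX2* classes, and *CLDN4*, *CLDN7* and *KRT7* in the *EPCAM* classes. *SOX9* and *COL2A1* are not particular to 1 class: in E16 HS they were found in 36 and 79 of 117 cells of the *T* and *CDX2* class.

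*FOXA2* was found in cells with floor plate genes and in cells with endoderm genes. Of its cells 31 of 46 held *SOX2* (67.4%, 52.0 to 80.5; expected 13.8), 47 of 59 (79.7%, 67.2 to 89.0; expected 22.5) and 20 of 42 (47.6%, 32.0 to 63.6; expected 8.01). *EPCAM* was held by 16 of 46 (34.8%, 21.4 to 50.2; expected 7.08), 15 of 59 (25.4%, 15.0 to 38.4; expected 11.0) and 36 of 42 (85.7%, 71.5 to 94.6; expected 11.6). In E19 HS the count with *EPCAM* was thus near the expected one. Cells with *SOX2* but no *EPCAM* had the floor plate list at 547 CPM (446 to 663) in E19 HSTS and 313 CPM (254 to 382) in E19 HS, and *NTN1* was found in 40 of these 72 cells over the 3 libraries. Cells with *EPCAM* but no *SOX2* had the floor plate list at 14.5 CPM and the endoderm list at 2902.8 CPM (2762.4 to 3048.5) over the 3 libraries, with *CLDN4* in 33 of 41 cells. Liver and yolk sac secretory genes led these cells in each library, such as *FETUB* in 8 of 12 cells of E19 HSTS, *AMBP* in 2 of 8 cells of E19 HS and *AHSG* in 6 of 21 cells of E16 HS. The 15 cells of E16 HS with both *SOX2* and *EPCAM* held the tail bud list at 222 CPM (168 to 288) against 54.2 CPM, the notochord list at 620 CPM (527 to 724) and the floor plate list at 203 CPM (151 to 266), and *BMPR1B* led them, in 6 of 15 cells.

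*SHH* and *FOXA2* were seldom caught in the same cell, in 7, 4 and 6 cells, though 0.429, 0.466 and 0.156 were expected from independence. These were 10.9%, 6.90% and 19.4% of the cells with *SHH* and 15.2%, 6.78% and 14.3% of those with *FOXA2*. With *T*, *FOXA2* shared 1, 1 and 8 cells (expected 0.0335, 0.233 and 0.831). *SPON1* lay with *FOXA2* in 20, 23 and 6 cells, where 3.41, 4.69 and 2.48 were expected.

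*SPON1* was mostly found in cells without *SHH*. At day 19 the 35 and 31 cells that held it with *SHH* were 6.82% and 5.25% of its cells. Cells with *SPON1* and *SHH* had the floor plate list at 743 CPM (648 to 848) and 452 CPM (369 to 549), and the 478 and 559 cells with *SPON1* but no *SHH* had it at 123 and 134 CPM, still above the 23.1 and 27.2 CPM of all others. *SOX2* was found in 229 of 513 cells with *SPON1* (expected 153), 298 of 590 (expected 223) and 113 of 495 (expected 93.9). *EPCAM* was found in fewer cells with *SPON1* than independence would give, 35 (expected 78.4), 50 (expected 109) and 105 (expected 135).

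*NOG* shared 0, 2 and 4 cells with *T* (expected 0.0306, 0.198 and 2.21), 1, 2 and 3 with *SHH* (expected 0.392, 0.395 and 0.417) and 0, 0 and 0 with *CHRD*. With *SPON1* it shared 8 of 42, 4 of 50 and 3 of 112 (expected 3.11, 3.97 and 6.61). Of its cells 18 of 42, 20 of 50 and 21 of 112 held *SOX2*, where 12.6, 19.0 and 21.3 were expected.

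Clusters of all kept cells, with the 7 genes and the 3 partners left out of the variable genes, placed the same cells among tissues. The naming did not leave them out: *SOX2* helped name the spinal cord-like clusters, *EPCAM* a gut-like cluster and *CDX2* the tail bud-like cluster. The names are therefore not independent of the partners. None of the 32 clusters could be named notochord-like or floor plate-like. The tail bud-like cluster, led by *SLC2A5*, *FGF8* and *CDX4*, held 134 of the 165 cells with *T* in E16 HS and 15 of 29 in E19 HS, and a gut-like cluster led by *CXCL14* and *CLDN7* held 11 and 10. In E19 HSTS the tail bud-like cluster held none and the gut-like cluster 4 of 5. The cells with *T* and *SHH* lay in the gut-like cluster in 3 of 4, 7 of 8 and 4 of 10 cases. That cluster's leading genes included *TFAP2A* and *TFAP2B*, markers of surface ectoderm and neural crest. The clustering was repeated with the members and partners that had been selected as variable genes kept in. Not all of the 10 genes had been selected. The tail bud-like cluster then held 80%, 89.7% and 88.5% of the cells with *T* and the gut-like clusters 0%, 0% and 3.03%. Of these clusters 1 was named floor plate-like, led by *HCRT*, *SPON1*, *ENKUR* and *NTN1*, with 97, 136 and 6 cells, so that both the place of the *T* cells and the absence of a floor plate-like cluster changed with that choice.

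Within the tail bud-like cluster, *T* was found in 15 of 94 cells of E19 HS (16.0%, 9.22 to 25) and in 134 of 1121 cells of E16 HS (12%, 10.1 to 14.0). Of the 31 cells of E19 HSTS none held it, which allows a share of up to 11.2% by the exact interval. This count holds for the clusters made without the 10 genes. With those of them that were selected as variable genes, the tail bud-like cluster took in 36 cells of E19 HSTS and 80% of its cells with *T*. As a level, E19 HS had 30.9 CPM (19.1 to 47.3) and E16 HS 16.3 CPM (14.1 to 18.9). A count of 0 in E19 HSTS allows up to 14.7 CPM by the exact interval. That upper end lay below the interval of E19 HS but within that of E16 HS. By level, E19 HSTS was therefore not set apart from E16 HS in this cluster. *CDX2* was found in 6 of the 31, 41 of the 94 and 654 of the 1121 cells. *NOTO* lay in the tail bud-like cluster with 27 of its 33 UMIs.

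**Figure D5:**
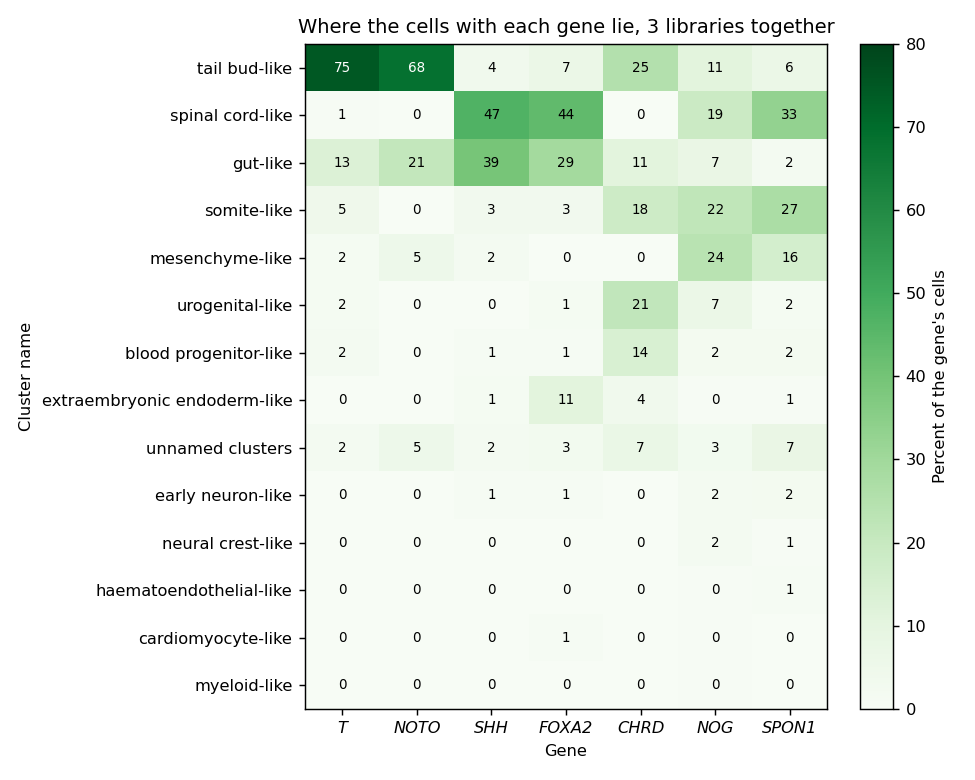
Percent of the cells with each of the 7 genes (columns) that lay in clusters of each name (rows), 3 libraries together. *T* and *NOTO* lie mostly in the tail bud-like cluster (74.9% and 68.4%), *SHH* and *FOXA2* in spinal cord-like and gut-like clusters, and *NOG* and *SPON1* are spread.

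*SHH* was split between spinal cord-like clusters, with 47.0% of its cells over the 3 libraries, and gut-like clusters, with 39.2%. By library the spinal cord-like share was 60.9%, 55.2% and 3.23%. *FOXA2* had 47.8%, 64.4% and 9.52% of its cells there. A further 12 of its 46 cells in E19 HSTS lay in an extraembryonic endoderm-like cluster of liver and yolk sac genes, where it was found in 12 of 113 cells (10.6%, 5.61 to 17.8), against 2 of the 59 cells in E19 HS. *SPON1* was high in a spinal cord-like cluster led by *PAX6*, at 55 CPM (48.6 to 61.9) in E19 HSTS and 39.7 CPM (35.3 to 44.4) in E19 HS, and over the 3 libraries in an unnamed cluster led by *SLPI*, *C1QA* and *PTPRO*, at 51.2 CPM (42.5 to 61.1) in 68 of 265 cells. It was also high in a mesenchyme-like cluster led by *REG4* and *COL1A1*. There it stood at 43.4 CPM (25.8 to 68.7) in E19 HSTS, in 12 of 42 cells, and 42.9 CPM (28.5 to 62.1) in E19 HS, in 23 of 69. In the tail bud-like cluster of E19 HSTS it was at 39.7 CPM (19.1 to 73.1), in 7 of 31 cells. *NOG* had 23.5% of its cells in mesenchyme-like, 21.6% in somite-like and 18.6% in spinal cord-like clusters. *CHRD* had 25% in the tail bud-like and 21.4% in the urogenital-like cluster, 17.9% in somite-like and 14.3% in blood progenitor-like clusters.

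The genes most like each member over the 32 clusters, by Pearson's r of log2(CPM + 1), are given as a description, since clusters share libraries and depth. *T* was most like *CYP26A1* (0.899), *FGF17* (0.873) and *HES7* (0.852), all of the tail bud. *NOTO* was most like *HES7* (0.956) and *T* (0.947). *SHH* was most like *SP9* (0.840), *FOXA2* (0.822) and *SIX6* (0.771), which is in the forebrain and optic marker list. *FOXA2* was most like *TTR* (0.846), a liver and yolk sac carrier protein, and *SHH*. *SPON1* was most like *THSD7A* (0.893) and *CDH7* (0.880), *CHRD* like its relative *CHRDL2* (0.722) and *NOG* like *SH2B2* (0.809).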

How the data were processed

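The deposited files hold UMI counts per gene and cell barcode, which the authors made from 10x 3′ libraries with Cell Ranger 6.1.2 on the sheep genome Ovis_aries_genome_v1.0, in filtered matrices with no normalization. The study used Seurat 4.1.1 in R 4.1.2. From the counts, cells with 200 to 6000 genes, 1000 to 30000 UMIs and up to 10% mitochondrial UMIs were kept (86.5%, 88.1% and 89.6% of barcodes). UMIs were summed per library, divided by the library total and multiplied by 1000000 (CPM), with exact Poisson intervals for levels, exact conditional binomial intervals for ratios and Clopper-Pearson intervals for shares. With 1 library per group no test was made; a ratio of at least 2 was counted as higher or lower, over genes with at least 20 UMIs in both libraries together. A count of 0 was given the limit of 3 counts. UMIs in droplets are counts of captured molecules, and depth sets which rare genes are seen.

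Cells were clustered in Seurat 5.3.0 (R 4.3.3; 2000 variable genes without the 7 genes and 3 partners, 25 components, resolution 1.0). Clusters were named from 19 marker lists by their 10 leading genes, with at least 3 detected markers. The members and partners were left out of the variable genes but not out of these marker lists. Blood cells are those of 4 clusters named blood progenitor-like and of 2 unnamed clusters with *ANK1* among their 10 leading genes; their use as background and the classes by *SHH*, *CDX2*, *SOX2* and *EPCAM* were chosen after the data were seen. The doublet caller (Scrublet in scanpy 1.11.5) marked 2, 1 and 202 cells, so it did not work in the day 19 libraries, and no cell was removed. Expected shared cells weight each cell by its depth. Genes named are the members, the partners, genes of the fixed lists, the 5 genes of each class with the largest CPM ratio to other cells (at least 20 UMIs in the class), the leading genes of clusters and the 3 genes most like each member (at least 100 UMIs). The members and gene lists were chosen with earlier results of these data known. Alternatives were a stricter filter (500 genes, 5% mitochondrial), all barcodes, TMM scaling (edgeR 4.0.16), no blood cells, no top 8% of doublet scores, thinning to 3000 UMIs, 2 UMIs for detection, resolution 0.25, and clustering that kept those of the 10 genes selected as variable. The scripts were tested on simulated data. Sequences and coordinates were not used here. Some genes of the lists and clusters are not reported here by name.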

Additional observations from a re-analysis of the deposited data

How the results depend on the processing

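No paired analysis was possible because each group was 1 library and no result came from a test. Of 65 recomputed ratios 63 stayed within their counting interval; *SPON1* in E19 HSTS to E19 HS turned to 1.17 without blood cells, and in E16 HS to E19 HS it was 0.506 under TMM scaling. Of 88 recomputed shares of shared cells 25 left their interval, nearly all under thinning or 2 UMIs for detection, which leave fewer cells. Thinned to 3000 UMIs, E19 HSTS had 0% of cells with *T* holding *CDX2* and 0% holding *SHH*, 30.3% of *SHH* cells with *SPON1* and 9.52% of *FOXA2* cells with *EPCAM*. E19 HS then had 19.4% of *SHH* cells with *EPCAM*, 35.5% with *SPON1* and 13% of *FOXA2* cells with *EPCAM*. E16 HS had 32.8% of *T* cells with *CDX2*, 27.3% of *SHH* cells with *EPCAM*, 50% of *FOXA2* cells with *EPCAM* and 16.7% of *NOTO* cells with *T*. With 2 UMIs for detection, E19 HSTS had 0% for *T* with *CDX2*, *T* with *SHH* and *SHH* with *EPCAM*. E19 HS had 15.4% for *T* with *CDX2*, 36.4% for *SHH* with *SOX2* and with *SPON1*, 100% for *FOXA2* with *SOX2* and 0% for *FOXA2* with *EPCAM*. E16 HS had 47.5% for *T* with *CDX2*, 0% for *SHH* with *SOX2* and with *SPON1* and 100% for *FOXA2* with *SOX2*. Leaving out the top doublet scores gave 0% for *T* with *CDX2* and 100% for *T* with *SHH* in E19 HSTS. The ratio of *NOTO* at day 19 could not be formed, since both libraries had 0 UMIs. Of the 21 shares of cells with a gene 17 moved under thinning and 19 with 2 UMIs for detection. Of 22 shares by cluster 14 moved when those of the 10 genes selected as variable were kept in, and 0 at resolution 0.25.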
